A study of Mus musculus with 2 samples.

Results

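Replication-dependent histone genes encode the linker histone H1 and the core histones H2A, H2B, H3 and H4 that package newly made DNA, and their mRNA was measured in single cells of the embryonic mouse peripheral retina. The members were all genes of the deposited gene table with symbols that begin with Hist1h, Hist2h, Hist3h or Hist4h, the names of the clustered histone genes. There were 67 such symbols among 32285 genes. The 62 with at least 20 unique molecular identifiers (UMIs, the count of captured transcripts) over both libraries are described. The other 5 were Hist1h1t with 4 UMIs, Hist2h2aa2 with 3, Hist1h2bq and Hist1h2aa with 1 each and Hist1h2ba with 0. The members just inside the threshold were Hist1h2ao with 63 UMIs and Hist1h4f and Hist1h2ah with 75 UMIs each.

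The study compared 1 albino library with 1 pigmented library, each from optic cups of 3 pooled embryos at stage E13.5. Embryos of both groups bore α-Cre, a Cre driven in the peripheral part of the neural retina, with a Cre-dependent TdTomato reporter (a-Cre;Td in the labels), and TdTomato-positive cells were sorted after papain dissociation. The sort therefore kept cells of the peripheral retina, with the ciliary margin zone (CMZ) at the edge of the optic cup. The albino library carries the strain label Swizz ICR. For the pigmented library the strain is given as Tyrc2j, which is how an allele of tyrosinase that causes albinism is usually written, so strain and title disagree there. Groups were taken from the titles, and every ratio of albino over pigmented rests on them. Pigmentation cannot be told apart from strain, embryo pool, library preparation and the makeup of the pools by sex: 96.1% of albino and 29.3% of pigmented cells had Xist UMIs and no Y-linked UMI. Each group is 1 library, so the groups were compared without replicates and without a test. Bracketed ranges are exact 95% intervals that cover counting error only.

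In dividing cells these genes are switched on as DNA replication begins and their mRNA is degraded when it ends. Their mRNAs are known to end in a conserved stem-loop, bound by the stem-loop binding protein Slbp, in place of a poly(A) tail. Some of the genes are known to also make a polyadenylated mRNA, mostly in cells that have left the cycle. Droplet libraries of the 3' kind are primed on poly(A), so the counts hold those histone transcripts that the primer caught, and the share of each member's mRNA that was caught was not tested. UMIs count transcript ends and are not scaled by length.

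After filtering, 3508 albino cells (median 11234.5 UMIs) and 5715 pigmented cells (median 10323 UMIs) were kept, and they held 155119 and 235831 histone UMIs. Cells were clustered without the histone genes, their variants, chaperones and mRNA factors and without the genes that score the cycle, and 22 of 30 clusters took a name from 14 marker lists. Clusters with no name held 14.0% of albino and 14.9% of pigmented cells. Cells like retinal progenitor cells (RPC-like) numbered 1124 albino and 2109 pigmented, CMZ-like cells 333 and 757, neurogenic-like cells, which carry genes of progenitors about to become neurons, 426 and 773, and cells like retinal ganglion cells (RGC-like), the first neurons of the retina, 708 and 550. The RPC-like, CMZ-like and neurogenic-like cells are called cycling classes below. Doublet calling marked 0.109% of albino and 2.76% of pigmented barcodes, so it had hardly worked in the albino library, and doublets may remain there. The libraries shared 8 barcodes, 6 of them among kept cells.

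Sequences at the 3′ ends of 6 members show the stem-loop that defines these mRNAs, with the 16-base stem-loop in capitals and flanks in lower case. They are GRCm38 sequences of GENCODE M21 transcript models, printed 5′ to 3′ on the gene's strand. Hist3h2ba lies at chr11:58949345-58949367 (+), Hist3h2a at chr11:58955168-58955190 (+), Hist1h2ap at chr13:21833026-21833048 (−), Hist1h1e at chr13:23621779-23621801 (−), Hist1h3e at chr13:23561900-23561922 (−) and Hist1h4d at chr13:23581946-23581968 (+).
Hist3h2ba: caaaGGCTCTTTTCAGAGCCacc
Hist3h2a: caaaGGCTCTTTTCAGAGCCacc
Hist1h2ap: aaaaGGCTCTTTTCAGAGCCatc
Hist1h1e: caaaGGCTCTTTTCAGAGCCacc
Hist1h3e: aaacGGCTCTTTTAAGAGCCacc
Hist1h4d: caaaGGCCCTTTTCAGGGCCact

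The stem-loop pattern, GGNN followed directly by CTTNTNAG and NNCC, where N is any base, was searched on the transcript strand only and found in the models of 43 of the 62 members. The form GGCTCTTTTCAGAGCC was the most common, in 24 members: 3 H1, 9 H2A, 7 H2B and 5 H3 genes. The form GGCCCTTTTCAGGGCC was found in 7 members, all of them H4 genes. Another 5 members, 2 H2B and 3 H3 genes, had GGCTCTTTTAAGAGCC. In 21 members the model ended within 100 bases after the stem-loop, in 22 it ran on for at least 100 bases, and 19 models, Hist1h1b among them, had no match. Absence of a match says only that these letters are not in the model.

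Some models also carry near their end the AATAAA hexamer that directs polyadenylation, and 4 such windows are shown with the hexamer in capitals because these members are described one by one below. The first 3 models run past their stem-loop, and the Hist2h2be model has no stem-loop match. Hist3h2ba is at chr11:58949503-58949532 (+), Hist3h2a at chr11:58956793-58956822 (+), Hist1h2ae at chr13:23570519-23570548 (−) and Hist2h2be at chr3:96223713-96223738 (+).
Hist3h2ba: tattAATAAAtttggttcaattttggccac
Hist3h2a: gcccAATAAAataagagtacgtgtataaca
Hist1h2ae: ctccAATAAAtgggtcaatttttttcagat
Hist2h2be: tattAATAAAgttaccgattagtttc

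AATAAA or ATTAAA, searched on the transcript strand, stood in the last 40 bases of 15 of the 62 models. Of the 22 models that ran past the stem-loop 11 had one, of the 21 that ended at it 1, and of the 19 without a match 3. The Hist3h2ba model (chr11:58948920-58949533, a single exon on the + strand) ends 169 bases after its stem-loop. The Hist3h2a model (chr11:58954685-58956830, + strand) ends 1643 bases after it, while the Hist1h2ap model (chr13:21833026-21833507, − strand) ends 3 bases after it.

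The UMIs were concentrated in a few members. Over both libraries Hist1h1b (H1f5 in current RefSeq naming), a linker histone, had 63925 UMIs. Hist3h2ba (H2bu2), an H2B gene of the small cluster on chromosome 11, had 56344. The H2A genes Hist1h2ap and Hist1h2ae had 49588 and 39360 UMIs, and the linker histone Hist1h1e had 36134. These 5 members held 60.7% of all histone UMIs, and the median over the 62 members was 1713.5. The 5 H1 genes held 29.9% of histone UMIs, the 16 H2A genes 29.0%, the 16 H2B genes 22.6%, the 12 H3 genes 5.53% and the 13 H4 genes 12.97%. The large Hist1 cluster on chromosome 13, with 50 members, held 80.6%. The 9 Hist2 members held 3.74% and the 2 Hist3 members 15.5%.

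Histone mRNA was higher in cells called S or G2M than in cells called G1, in both libraries and in every cycling class. Phase was called per cell from scores of 39 S-phase and 53 G2/M genes, none of them a histone gene. A cell takes the phase of its higher score, or G1 when neither is above 0. In the albino cycling classes the summed histone level was 997 CPM (UMIs per 1000000 UMIs of the same cells) in 303 cells called G1, 4001 CPM in 671 cells called S and 6316 CPM in 909 cells called G2M. In the pigmented cycling classes it was 899 CPM in 739 G1 cells, 3792 CPM in 1186 S cells and 6190 CPM in 1714 G2M cells. The level in S over that in G1 was 4.02-fold (3.87 to 4.17) in the albino and 4.22-fold (4.11 to 4.33) in the pigmented library. Without Hist3h2ba it was 6.15-fold in the albino and 6.499-fold in the pigmented library. S cells were below G2M cells, at 0.634 (0.625 to 0.642) and 0.613 (0.606 to 0.619) of their level.

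Ordering the cells around the cycle placed the peak where both scores were high. Cells of the cycling classes were put into 12 bins by the angle of their S and G2M scores, so that bin 1 holds cells low in both and bins 3 and 4 cells high in S score only. Bin 6 was high in both scores, and bins 8 and 9 were high in G2M score. In bins 10 to 12 the S score was low while the G2M score fell. Its mean was 0.388 albino and 0.381 pigmented in bin 10, 0.186 and 0.202 in bin 11 and −0.102 and −0.114 in bin 12. In the albino library the histone level was 888 CPM in bin 1, 956 in bin 3, 1602 in bin 4, 5834 in bin 5, 11475 in bin 6, 10949 in bin 7, 7066 in bin 8, 2745 in bin 9 and 1055 in bin 12. In the pigmented library the same bins held 872, 962, 1187, 6287, 12107, 10863, 7070, 3220.5 and 971 CPM. The peak in bin 6 lay among cells whose mean G2M score, 0.454 albino and 0.432 pigmented, was above their mean S score, 0.371 and 0.357. By these means the cells at the histone peak fell on the G2M side of the phase rule. The mRNA of Slbp peaked in the same bin, at 267 CPM albino and 260 CPM pigmented, against 60.2 and 70.1 CPM in bin 12.

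**Figure D1:**
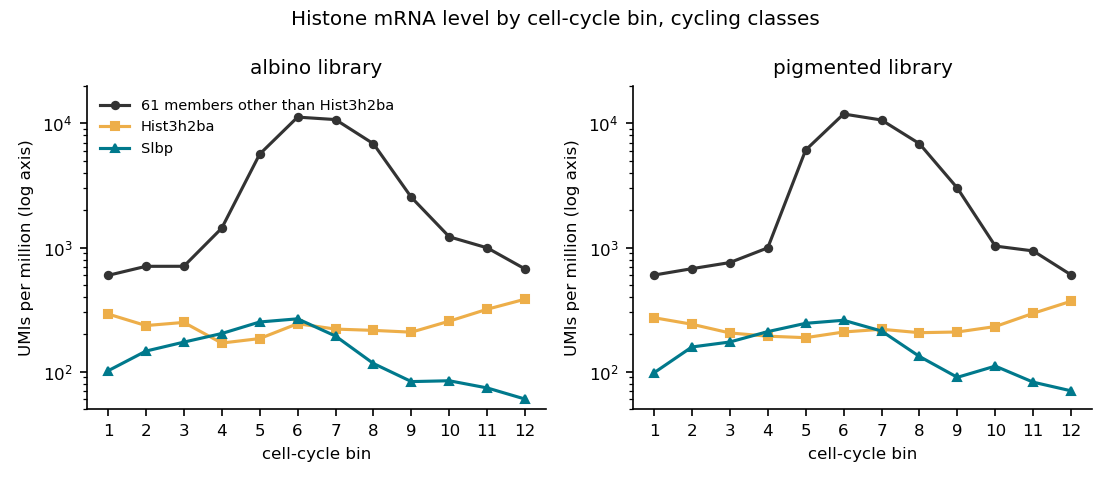
Level in CPM (log axis) in 12 cell-cycle bins of the cycling classes, for the summed 61 members other than Hist3h2ba, for Hist3h2ba and for Slbp, with the albino library left and the pigmented library right. The summed members peak in bin 6 in both libraries, while Hist3h2ba is highest in bin 12, at 384 CPM albino and 370 CPM pigmented.

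Most members followed this course one by one. Of the 56 members with at least 100 UMIs in cycling cells, 31 peaked in bin 6 and 19 in bin 7 in the albino library, against 35 and 13 in the pigmented library. At least 2-fold higher in S than in G1 were 45 of 54 members tested in the albino library, where 5.38% of all genes passed the same fold. In the pigmented library it was 48 of 57 members, against 5.56% of all genes. At least 2-fold lower was 1 albino member (all genes 4.11%) and 0 pigmented members (all genes 4.03%). The median log2 ratio of S over G1 over the members was 2.49 albino and 2.63 pigmented, against −0.08 and −0.04 over all genes tested.

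**Figure D2:**
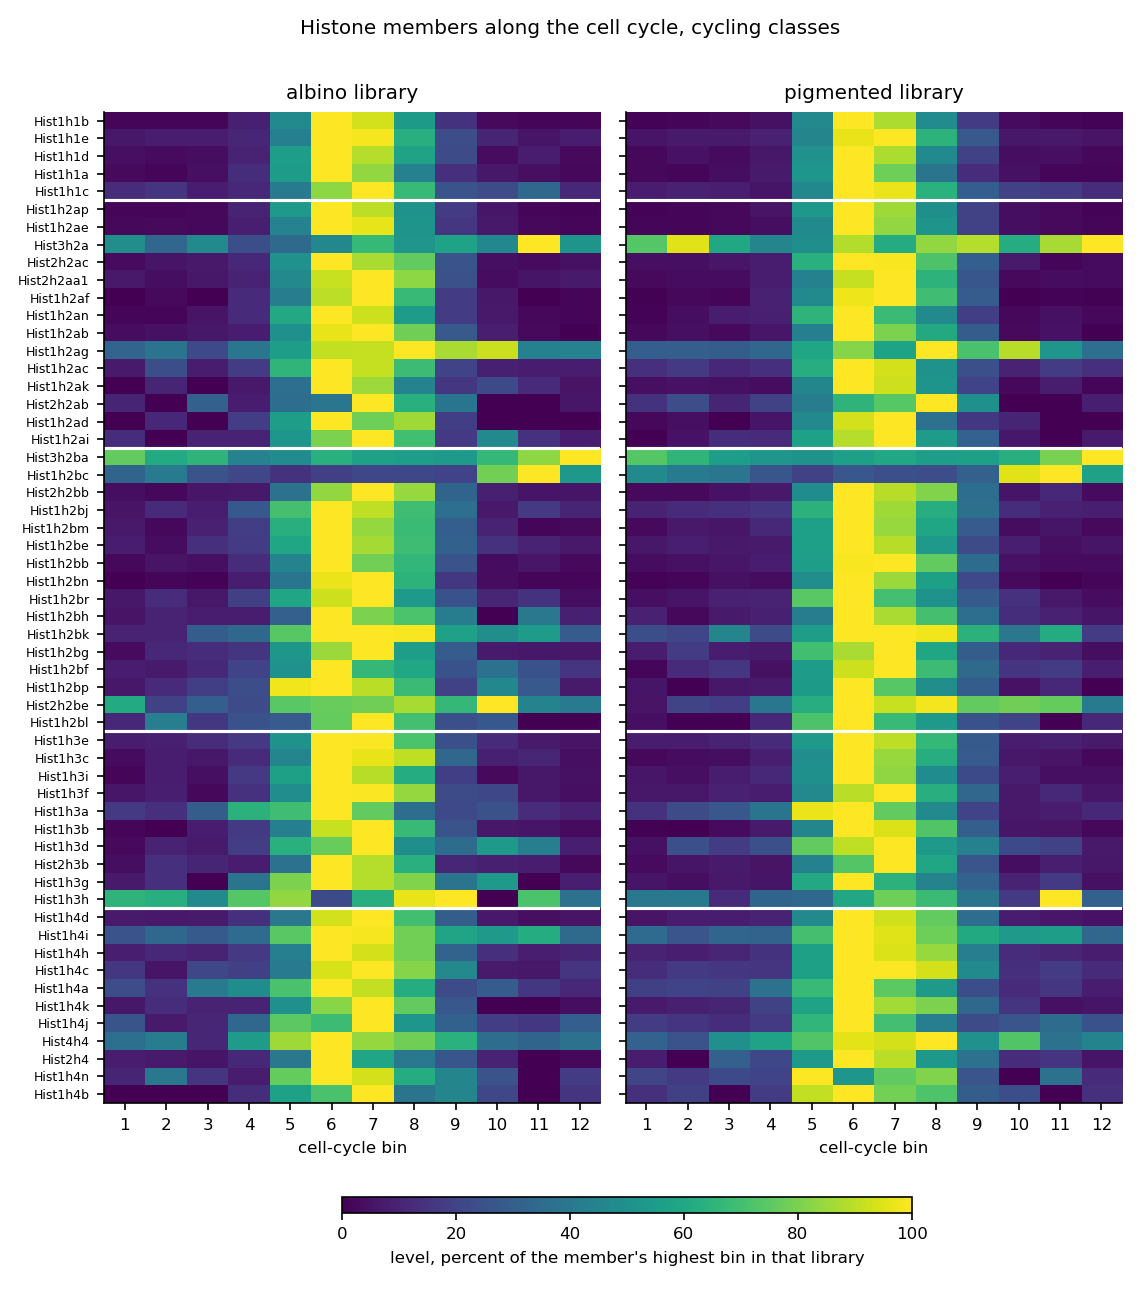
Level of each member with at least 100 UMIs in cycling cells in the 12 cell-cycle bins, as a percent of its own highest bin, grouped from top to bottom into H1, H2A, H2B, H3 and H4, with the albino library left and the pigmented library right. Most rows are brightest in bins 6 and 7, while Hist3h2ba is brightest in bin 12 and Hist1h2bc in bins 10 and 11.

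Among the linker histones, Hist1h1b had 689 CPM in S against 30.8 CPM in G1 in albino cells (22.3-fold, 18.2 to 27.7). In pigmented cells it had 731 CPM in S against 22.2 CPM in G1 (32.8-fold, 28.3 to 38.4). In G2M over G1 the ratios of this gene were 35.5 and 54.9. Hist1h1e, another linker histone, kept more of its mRNA in G1: 336 CPM in S against 83.5 CPM in G1 in albino cells (4.03-fold, 3.54 to 4.61), and 340 against 62.5 CPM in pigmented cells (5.44-fold, 4.96 to 5.99). The linker histones Hist1h1d and Hist1h1a lay between them in albino cells, at 15.02-fold and 19.8-fold, and in pigmented cells at 15.4-fold and 22.9-fold. In both libraries the intervals of Hist1h1b and Hist1h1e did not overlap.

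Of the H2A genes, which form the outer part of the nucleosome core with H2B, Hist1h2ap had 713 CPM in S against 23.8 CPM in G1 in albino cells (29.9-fold, 23.7 to 38.4). In pigmented cells it had 499 CPM in S against 16.1 CPM in G1 (31.0-fold, 26.0 to 37.3). Hist1h2ae had 445 against 29.5 CPM in albino cells (15.1-fold) and 409.5 against 22.1 CPM in pigmented cells (18.5-fold). For both genes the S level was over 15 times the G1 level in both libraries. Hist2h2ac, an H2A gene of the chromosome 3 cluster, was 9.53-fold and 10.8-fold higher in S. Hist1h2af stood at the detection limit in G1, with 4 albino and 3 pigmented UMIs there, and its ratios of 23.1 and 78.0 (26.5 to 380 for the pigmented one) rest on those few UMIs. Hist1h2ab had 1 and 6 UMIs in G1 cells.

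The H3 and H4 genes, which form the inner tetramer of the nucleosome core, had fewer UMIs. Hist1h3e, the H3 member with most UMIs, had 88.2 CPM in S against 15.8 CPM in G1 in albino cells (5.60-fold), and 89.3 against 19.9 CPM in pigmented cells (4.48-fold). Hist1h3c was 9.71-fold and 16.9-fold higher, Hist1h3i 16.3-fold (with 5 UMIs in albino G1 cells) and 6.34-fold, and Hist1h3f 6.37-fold and 5.03-fold. Among the H4 genes, Hist1h4d had 193 CPM in S against 40.6 CPM in G1 in albino cells (4.75-fold, 3.94 to 5.76). In pigmented cells Hist1h4d had 212 against 33.95 CPM (6.24-fold, 5.50 to 7.11). Hist1h4i, the H4 gene with the next most UMIs, differed less: 167 against 80.5 CPM in albino cells (2.07-fold, 1.80 to 2.39) and 144 against 88.2 CPM in pigmented cells (1.64-fold, 1.498 to 1.79). Hist1h4h was 3.22-fold and 4.18-fold and Hist1h4c 1.88-fold and 3.14-fold higher in S.

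Hist3h2ba, Hist3h2a and Hist1h2bc went the other way, with less mRNA in S than in G1. Hist3h2ba had 198 CPM in S against 378 CPM in G1 in albino cells, a ratio of 0.523 (0.484 to 0.566), and 203 against 347 CPM in pigmented cells, a ratio of 0.587 (0.555 to 0.620). Hist3h2a (H2aw), the H2A gene beside it on chromosome 11, had 12.3 against 21.8 CPM in albino cells (0.563, 0.405 to 0.786) and 14.2 against 22.5 CPM in pigmented cells (0.632, 0.510 to 0.784). Hist1h2bc, an H2B gene of the chromosome 13 cluster, had 50.6 against 108 CPM in albino cells (0.470, 0.404 to 0.547) and 59.8 against 103 CPM in pigmented cells (0.580, 0.524 to 0.642). All 6 intervals lay below 1. Along the bins Hist3h2ba was lowest at 170 CPM in albino bin 4 and 188 CPM in pigmented bin 5. Hist1h2bc had 198 and 251 CPM in albino bins 10 and 11 and 206 and 216 CPM in pigmented bins 10 and 11, against 36.8 and 42.7 CPM in bin 5.

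In G1 cells Hist3h2ba had the most captured UMIs of all members, though the share of each member's mRNA that was caught was not tested. Hist3h2ba was 38.0% of histone UMIs in albino G1 cells, 4.95% in S cells and 3.58% in G2M cells. In the pigmented library it was 38.6%, 5.36% and 3.51%. H2B genes together made up 53.4% of G1 histone UMIs in the albino and 54.5% in the pigmented library. Hist2h2be, an H2B gene with a hexamer in its model and few UMIs, did not differ between S and G1 beyond counting error: 0.940 (0.449 to 2.11) in albino and 1.68 (0.841 to 3.57) in pigmented cells.

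Set against cell class, histone mRNA was highest in neurogenic-like cells and lower in the neurons. In bulk sums of this kind, fewer cells with the mRNA and less mRNA per cell cannot be told apart. Neurogenic-like cells had 6570 CPM albino and 5878 CPM pigmented, RPC-like cells 4801 and 4703, CMZ-like cells 3581 and 3246 and mesenchyme-like cells 3475 and 2873. Amacrine-or-horizontal-like cells, early interneurons, had 1903 and 1705 CPM, RGC-like cells 1795 and 1678 CPM, and photoreceptor-like cells 1576 and 1413 CPM. The neuron classes lay below all 3 cycling classes in both libraries. Pooled over the cycling classes, cells called G1 had 997 CPM albino and 899 CPM pigmented, below each neuron class. Macrophage-like cells had 1182 and 1476 CPM over 29 and 26 cells. RPE-like cells (retinal pigment epithelium) had 659 and 1520 CPM over 15 and 29 cells, and 1 cell held 37.2% of the pigmented sum. In the pigmented surface-ectoderm-like class 1 of 6 cells held 82.3% of the histone UMIs.

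**Figure D3:**
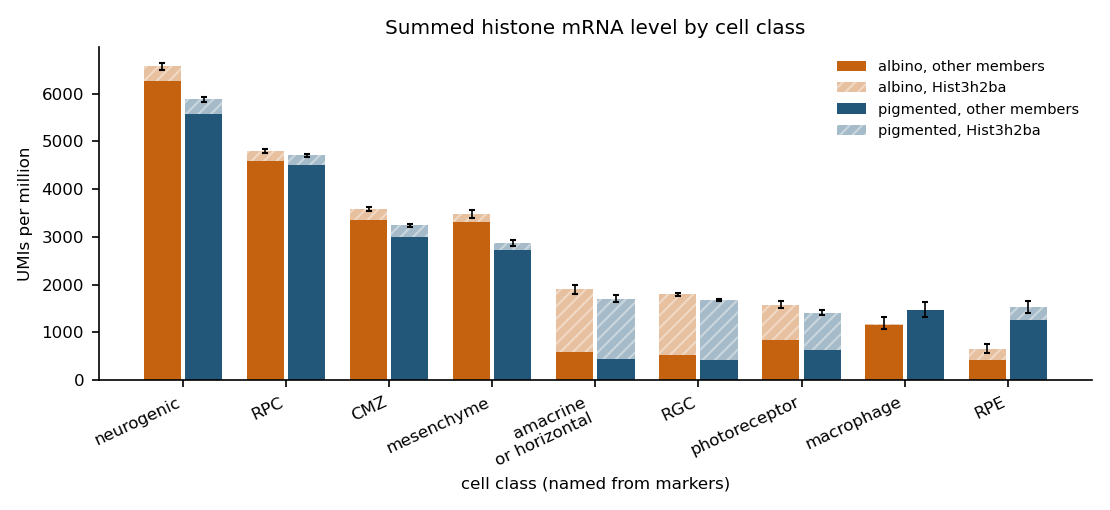
Summed histone level in CPM by cell class, albino bars left and pigmented bars right in each pair, with the hatched upper part showing Hist3h2ba and bars for the exact 95% counting interval of the sum. Neurogenic-like cells stand highest, and in RGC-like and amacrine-or-horizontal-like cells most of the bar is Hist3h2ba.

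In RGC-like cells, neurons that have left the cycle, most members were near their lowest, and the Hist3 pair was far above its level in progenitors. The summed level in RGC-like over RPC-like cells was 0.374 (0.368 to 0.380) in the albino and 0.357 (0.350 to 0.363) in the pigmented library. Without Hist3h2ba it was 0.113 and 0.0928. Phase differed too: 97.6% of albino and 99.1% of pigmented RGC-like cells were called G1, against 12.1% and 13.9% of RPC-like cells. RPC-like cells called G1 had 991 CPM albino and 877 CPM pigmented, below the 1795 and 1678 CPM of RGC-like cells. Without Hist3h2ba these G1 cells had 666 and 583 CPM, against 520 and 418 CPM in RGC-like cells. How much phase adds to the class ratios was not tested. Hist3h2ba had 1275 CPM in albino RGC-like against 207 CPM in albino RPC-like cells (6.15-fold, 5.90 to 6.42). In the pigmented library it had 1260.3 against 202.5 CPM (6.22-fold, 6.01 to 6.45). Hist3h2a had 182 against 16.3 CPM in the albino (11.2-fold, 9.68 to 12.96) and 172 against 16.3 CPM in the pigmented library (10.5-fold, 9.39 to 11.9). Hist3h2ba alone made up 71.0% and 75.1% of histone UMIs in RGC-like cells, against 4.32% and 4.31% in RPC-like cells.

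At least 2-fold higher in RGC-like cells were 4 of 59 albino members, where 17.1% of all genes passed, and 4 of 61 pigmented members, where 16.2% passed. They were Hist3h2ba, Hist3h2a and the H3 genes Hist2h3c2 and Hist2h3c1. The H3 pair had only 27 and 26 UMIs in albino and 14 and 13 in pigmented RGC-like cells, and Hist2h3c1 shares its whole sequence with other genes. In RPC-like cells the H3 pair had 8 and 10 UMIs in albino and 6 and 10 in pigmented cells. Each H3 gene reached the minimum of 20 only with its RGC-like UMIs, so the count of 4 leans on that filter. At least 2-fold lower were 54 of 59 albino members (all genes 22.8%) and 56 of 61 pigmented members (all genes 24.3%). The members' median log2 ratio of RGC-like over RPC-like cells was −4.17 albino and −4.37 pigmented, against −0.15 and −0.19 over all genes.

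Hist1h1b had 21.5 CPM in albino RGC-like against 793 CPM in albino RPC-like cells (0.0271), and 8.74 against 866 CPM in the pigmented library (0.0101). Hist1h2ap had 26.0 against 806 CPM in the albino (0.0322) and 8.24 against 615 CPM in the pigmented library (0.0134). These values rest on 233 albino and 70 pigmented UMIs of Hist1h1b and 282 and 66 UMIs of Hist1h2ap in RGC-like cells. Hist1h1e had 73.85 against 459.9 CPM in the albino (0.161) and 62.4 against 472 CPM in the pigmented library (0.132). The H3 gene Hist1h3c was at 0.0229 and 0.00606 of its RPC-like level, the last from 3 UMIs. The H3 gene Hist1h3e was at 0.0891 and 0.0827, and the H4 genes Hist1h4d and Hist1h4h at 0.0998 and 0.168 in albino and 0.0906 and 0.165 in pigmented cells. Hist1h2bc, which was also lower in S, kept 0.556 (38.3 against 68.9 CPM) of its albino and 0.366 (28.0 against 76.3 CPM) of its pigmented RPC-like level. Hist2h2be was at 0.282 (0.145 to 0.512) and 0.724 (0.431 to 1.17).

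**Figure D4:**
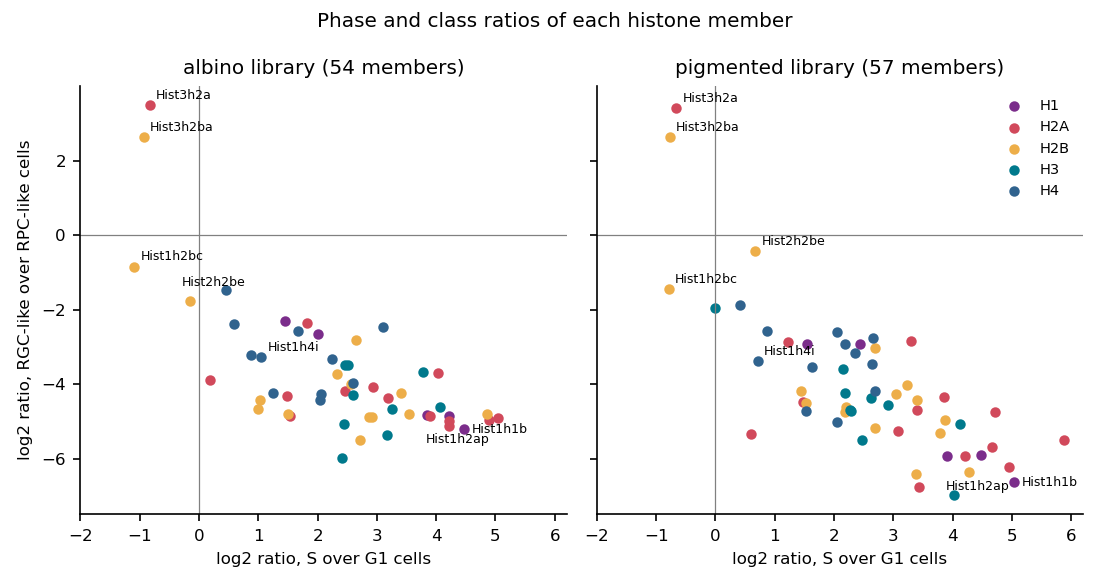
Each point is a member, with the log2 ratio of S over G1 in cycling classes on the horizontal axis and the log2 ratio of RGC-like over RPC-like cells on the vertical axis, coloured by histone type, for 54 albino members (left) and 57 pigmented members (right). Hist3h2ba and Hist3h2a stand apart at the upper left in both libraries, lower in S and higher in RGC-like cells.

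The Hist3 mRNAs were also high in other neuron classes. Hist3h2ba had 1319 CPM albino and 1264 CPM pigmented in amacrine-or-horizontal-like cells and 744 and 786 CPM in photoreceptor-like cells. In the classes that hold dividing cells it had 317.5 and 301 CPM (neurogenic-like), 233 and 258 CPM (CMZ-like) and 175 and 146 CPM (mesenchyme-like). In macrophage-like cells, of blood origin, it had only 21.0 and 13.2 CPM, from 6 and 3 UMIs. In surface-ectoderm-like cells, which are not neurons, it had 545 CPM over 44 albino cells, above the cycling classes, and 166 CPM, from 14 UMIs, over 6 pigmented cells. Free RNA of the droplets was not measured.

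Among the 4 members at least 2-fold higher in RGC-like cells, the H3 genes Hist2h3c2 and Hist2h3c1 had at most 27 UMIs there. The transcript models of all 4 ran at least 100 bases past the stem-loop. The H3 genes reached the minimum of 20 UMIs only with their RGC-like UMIs, so only the Hist3 pair stood clear of that filter. Over the 22 members with such models the median log2 ratio of RGC-like over RPC-like cells was −3.25 albino and −3.42 pigmented. It was −4.42 and −4.69 over the 21 whose model ends at the stem-loop, and −4.48 and −4.45 over those without a match. For S over G1 the medians were 2.14 and 2.17 in models that run past it, 2.51 and 2.69 in models that end at it and 2.93 and 3.16 in those without a match. The direction was the same in all 3 kinds of model, and most members with a longer model were still far lower in RGC-like cells. Whether the captured UMIs came from polyadenylated forms was not tested.

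Promoters of 3 members with opposite courses are shown because their levels moved apart: the Hist3 pair, higher in neurons, and Hist1h1b, higher in S. They are RefSeq sequences of GRCm38.p6, from 250 bases before to 50 after the start, on the gene's strand. Hist3h2ba is at chr11:58948661-58948960 (+), Hist3h2a at chr11:58954435-58954734 (+) and Hist1h1b at chr13:21780576-21780875 (−). Capitals mark TATAAA (the TATA box), the CCAAT box and the octamer of H2A and H2B promoters, ATTTGCAT, on either strand, so that the same motifs read on the other strand appear as their reverse complements.
Hist3h2ba: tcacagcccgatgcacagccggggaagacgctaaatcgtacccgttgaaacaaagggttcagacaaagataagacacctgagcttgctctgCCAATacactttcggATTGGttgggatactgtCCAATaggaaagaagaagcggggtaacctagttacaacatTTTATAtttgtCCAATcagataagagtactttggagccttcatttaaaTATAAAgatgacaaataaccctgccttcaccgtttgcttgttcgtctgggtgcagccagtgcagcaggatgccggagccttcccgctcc
Hist3h2a: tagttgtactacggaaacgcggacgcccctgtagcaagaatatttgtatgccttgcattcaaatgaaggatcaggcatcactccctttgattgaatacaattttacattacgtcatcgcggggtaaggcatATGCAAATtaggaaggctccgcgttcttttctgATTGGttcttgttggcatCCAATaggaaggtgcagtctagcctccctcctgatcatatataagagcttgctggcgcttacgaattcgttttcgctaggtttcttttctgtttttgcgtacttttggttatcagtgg
Hist1h1b: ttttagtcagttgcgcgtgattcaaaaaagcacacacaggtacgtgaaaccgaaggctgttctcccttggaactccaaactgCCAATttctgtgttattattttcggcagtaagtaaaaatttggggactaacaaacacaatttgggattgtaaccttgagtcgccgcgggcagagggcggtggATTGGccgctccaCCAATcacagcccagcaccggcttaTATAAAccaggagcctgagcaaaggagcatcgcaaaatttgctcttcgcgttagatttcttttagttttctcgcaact

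Hist3h2ba had 2 TATAAA matches, the nearer one 39 bases before the start, and 4 CCAAT matches. Hist3h2a had no TATAAA match, 2 CCAAT matches and the octamer 119 bases before the start. Hist1h1b had TATAAA 28 bases before the start and 3 CCAAT matches. No motif was held by both Hist3 promoters and missing from that of Hist1h1b. Of the 57 members with a promoter in the table, 33 (57.9%) held TATAAA, against 14.2% of 27025 promoters of the same length, and 48 (84.2%) held CCAAT, against 37.9%. The octamer stood in 11 (19.3%, against 1.75% of all promoters), 6 of 16 H2A and 5 of 14 H2B genes. CCAAT was in every H1, H2A, H2B and H3 member with a promoter and in 3 of 12 H4 members. A match is a description of the letters and not a bound site.

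CMZ-like cells had less histone mRNA than RPC-like cells, at 0.746 (0.734 to 0.758) of their level in the albino and 0.690 (0.682 to 0.698) in the pigmented library. Higher in CMZ-like cells were 8 of 58 albino and 6 of 60 pigmented members, and the median log2 ratio was −0.36 and −0.58. Of the abundant members Hist1h1e was at 0.646 and 0.542, Hist1h2ae at 0.612 and 0.586, Hist1h2ap at 0.700 and 0.607 and Hist1h1b at 0.742 and 0.697 of its RPC-like level. The members lower in S were again apart. Hist3h2ba had 233 CPM in albino CMZ-like against 207 CPM in albino RPC-like cells (1.13, 1.05 to 1.20) and 258 against 202.5 CPM in pigmented cells (1.27, 1.22 to 1.33). Hist1h2bc was at 1.17 and 1.24 of its RPC-like level, Hist3h2a at 1.002 and 1.16 and Hist1h4i at 0.999 and 0.914.

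The CMZ-like class also held more cells called G1. They were 25.5% of albino and 36.1% of pigmented CMZ-like cells, against 12.1% and 13.9% of RPC-like cells. Within G1 the summed histone levels of the classes were close: 958 CPM in CMZ-like against 991 CPM in RPC-like albino cells, and 931 against 877 CPM in pigmented cells. Within S, CMZ-like cells had 4167 against 3698 CPM in RPC-like albino cells and 3619 against 3689 CPM in pigmented cells. Within a phase the classes were furthest apart in cells called G2M, at 4088 against 6501 CPM in albino and 4504 against 6334 CPM in pigmented cells. How much the larger G1 share adds to the gap over the whole class was not tested. In albino G2M cells Hist1h1b had 671 CPM in the CMZ-like and 1102 CPM in the RPC-like class, and in pigmented G2M cells 911 and 1191 CPM. In the CMZ-like class S over G2M was 1.02 (0.988 to 1.05) in the albino and 0.804 (0.784 to 0.823) in the pigmented library, against 0.569 and 0.582 in RPC-like cells.

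Neurogenic-like cells had the highest summed levels: 1.37 times (1.35 to 1.39) those of RPC-like cells in the albino and 1.2499 times (1.24 to 1.26) in the pigmented library. Here 53 of 59 albino and 50 of 60 pigmented members were higher, and the median log2 ratio was 0.42 and 0.27, against −0.09 and −0.11 over all genes. Hist1h1b had 1185 CPM in neurogenic-like against 793 CPM in RPC-like albino cells (1.495) and 1207 against 866 CPM in pigmented cells (1.39). The H2A gene Hist1h2af was at 1.85 and 1.79, Hist1h3c at 1.61 and 1.38 and Hist1h4d at 1.52 and 1.22. Hist3h2ba and Hist3h2a were higher here too, at 1.53 and 1.49 for the first gene and 1.76 and 1.60 for the second. Lower in neurogenic-like cells were 6 albino and 10 pigmented members, and 4 of them were lower in both libraries: Hist1h2bc at 0.920 and 0.888, Hist4h4 at 0.947 and 0.911, Hist1h3a at 0.672 and 0.881 and Hist1h4f at 0.824 and 0.356. Hist1h1a was at 1.05 and 0.936 and Hist1h4i at 0.901 and 1.02. G2M was called in 61.7% of albino and 57.1% of pigmented neurogenic-like cells, against 43.1% and 45.0% of RPC-like cells. Within G1, neurogenic-like cells had 1048 CPM albino and 862 CPM pigmented, against 991 and 877 CPM in RPC-like cells. Within S the values were 5612 and 4626 against 3698 and 3689 CPM. Within G2M they were 8289 and 7881 against 6501 and 6334 CPM. How much the larger G2M share adds to the class ratio was not tested.

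The class holds clusters of very different histone levels. Neurogenic-like clusters 10 and 17 had 10307 and 9227 CPM in the albino and 10665 and 9302 CPM in the pigmented library, while cluster 8 had 1223 and 1122 CPM. Cluster 10 held 32.9% of albino and 27.8% of pigmented neurogenic-like cells and cluster 8 held 31.0% and 39.1%. Among RPC-like cells, cluster 0 had 8864 and 10359 CPM and held 37.1% and 31.4% of the class, while cluster 1 had 1633 and 1167 CPM and held 27.9% and 33.5%. CMZ-like cells lay mostly in cluster 3 (57.4% and 53.2%), with 4691 and 4715 CPM, and otherwise in cluster 5, with 1068 and 1012 CPM. These clusters also differed in phase (albino first). G2M was called in 84.3% and 82.8% of cells in cluster 10, 84.2% and 81.3% in cluster 17 and 40.9% and 42.7% in cluster 8. In cluster 0 it was 48.9% and 52.6%, and in cluster 1 it was 32.2% and 33.6%. In cluster 3 it was 69.1% and 68.2%, and in cluster 5 it was 21.1% and 13.6%. The largest cluster of the RPC-like, neurogenic-like and RGC-like classes was a different one in each library.

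Between the libraries the summed histone level over all kept cells was slightly lower in albino, and within each cycling class it was slightly higher, and the first 2 of the ratios below changed direction under another setting. Over all cells it was 3371 CPM albino and 3583 CPM pigmented, a ratio of 0.941 (0.935 to 0.947), but the mean of per-cell levels gave the other direction, at 1.04 (3606 CPM albino and 3478 CPM pigmented). RGC-like cells, low in histone mRNA, were 20.2% of albino and 9.62% of pigmented cells. Within RPC-like cells the ratio was 1.02 (1.01 to 1.03), and 0.983 over cells with Xist and no Y-linked UMIs. It was 1.10 (1.08 to 1.12) within CMZ-like cells, 1.12 (1.10 to 1.13) within neurogenic-like cells and 1.07 (1.05 to 1.09) within RGC-like cells. None of these ratios reached 1.5-fold. Spread between pools is not known, so these intervals do not say whether other embryos would differ in the same way. The CMZ-like ratio was carried in part by 1 albino cell that held 5.98% of the histone UMIs of the class (1.13% for the highest pigmented cell), and without the highest cell of each library it was 1.08.

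The share of cells in each phase differed as well. In the cycling classes G1 was called in 16.1% of albino and 20.3% of pigmented cells, S in 35.6% and 32.6% and G2M in 48.3% and 47.1%. At equal depth the G1 shares were 15.9% and 19.6%. Of the cycling-class cells, 13.1% albino and 14.2% pigmented lay within 0.1 of the cut at 0. By phase, albino over pigmented was 1.11 in G1, 1.06 in S and 1.02 in G2M. CMZ-like cells differed by phase, with ratios of 1.03 (0.955 to 1.11) in G1, 1.15 (1.11 to 1.19) in S and 0.908 (0.889 to 0.927) in G2M, and the differences among these ratios were not tested. In neurogenic-like cells the ratio was 1.22 in G1, 1.21 in S and 1.05 in G2M.

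Member by member, few passed 1.5-fold between the libraries over all cells and in the 3 cycling classes. Over all cells 3 of 62 members were at least 1.5-fold higher in albino (all genes 5.9%) and 2 were lower (all genes 4.06%). The higher ones were Hist3h2a at 1.53 (1.45 to 1.61), Hist2h3c2 at 2.23 (1.41 to 3.60, from 50 albino and 32 pigmented UMIs) and Hist2h3c1 at 1.52. The lower ones were Hist1h3h at 0.656 and Hist1h2ao at 0.632. In RPC-like cells 1 of 61 was higher (all genes 2.3%) and 1 lower (all genes 2.59%). In CMZ-like cells 3 of 56 were higher (all genes 3.66%), Hist1h2ap, Hist1h2ad and Hist1h4j, and 1 was lower (all genes 3.45%), Hist1h3h. In neurogenic-like cells 3 of 58 were higher (all genes 2.5%) and 0 lower (all genes 3.81%). With at most 3 members each, these counts were near the shares of all genes.

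Other groups of cells held more members past 1.5-fold, most of them with few UMIs. By phase in the cycling classes, 6 of 35 members were higher in G1 (all genes 5.27%) and 2 lower (all genes 4.06%), 0 of 58 were higher in S (all genes 2.13%) and 0 lower (all genes 3.01%), and 2 of 61 were higher in G2M (all genes 2.58%) and 2 lower (all genes 2.92%). In mesenchyme-like cells 7 of 46 were higher (all genes 6.13%) and 1 lower (all genes 6.43%). In photoreceptor-like cells 5 of 16 were higher (all genes 5.84%) and 1 lower (all genes 6.23%), and in amacrine-or-horizontal-like cells 5 of 13 were higher (all genes 6.9%) and 0 lower (all genes 6.18%). Hist1h2ap was among the higher ones in all 3 of these classes, at 1.54 (1.41 to 1.68), 3.13 (2.16 to 4.59) and 2.45 (1.30 to 4.73). Cells of unnamed clusters went the other way, with 4 of 48 members higher (all genes 3.32%) and 10 lower (all genes 6.46%), among them Hist1h1b at 0.542 (0.495 to 0.592) and Hist1h4d at 0.575 (0.506 to 0.652). In the macrophage-like, RPE-like and surface-ectoderm-like classes, with 6 to 44 cells in a library, members were not counted.

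Hist1h2ap was higher in albino in each of the 4 main classes. It had 806 CPM in albino and 615 CPM in pigmented RPC-like cells (1.31, 1.28 to 1.34), and 564 and 373 CPM in CMZ-like cells (1.51, 1.44 to 1.58). In neurogenic-like cells it had 1024 CPM in albino and 714 CPM in pigmented cells (1.43, 1.38 to 1.49). Hist1h2ae, the next H2A gene by UMIs, was at 1.06 in RPC-like, 1.11 in CMZ-like and 1.20 in neurogenic-like cells. The linker histone Hist1h1b was at 0.916 (0.894 to 0.938) in RPC-like, 0.975 (0.935 to 1.02) in CMZ-like and 0.982 (0.9504 to 1.01) in neurogenic-like cells. Hist1h2ap shares 92.9% of its 60-base windows, and all windows of its last 200 bases, with other genes, so reads may have been placed on or taken from near-identical copies, and its level is uncertain. A strain difference in such copies cannot be told apart from a difference in expression.

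Hist3h2ba had 570.5 CPM in albino and 429.8 CPM in pigmented cells over all cells (1.33, 1.31 to 1.35). Within classes it was at 1.02 in RPC-like, 0.906 (0.848 to 0.966) in CMZ-like, 1.05 in neurogenic-like and 1.01 (0.986 to 1.04) in RGC-like cells. The offset over all cells was thus not seen within any of these 4 classes. Hist3h2a likewise was at 1.53 over all cells, 1.001 in RPC-like and 1.06 in RGC-like cells. Hist1h4d was at 0.758 over all cells, 0.872 in RPC-like, 0.893 in CMZ-like and 1.09 in neurogenic-like cells.

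**Figure D5:**
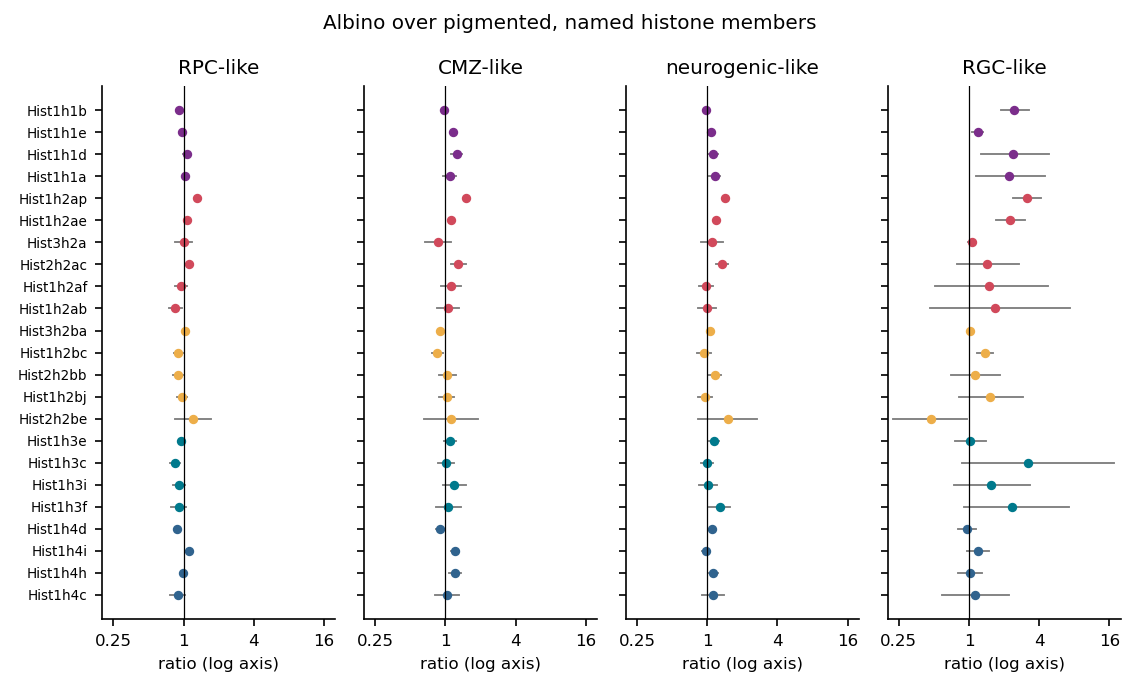
Ratio of albino over pigmented (log axis) for the 23 named members within RPC-like, CMZ-like, neurogenic-like and RGC-like cells, with exact 95% counting intervals as bars and colours by histone type. Hist1h2ap is at 1.31 to 1.51 in the 3 cycling classes and at 3.15 in RGC-like cells.

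RGC-like cells carried more of the S-phase members in albino, from low levels. At least 1.5-fold higher were 7 of 28 members (all genes 3.3%), Hist1h1b, Hist1h1d, Hist1h1a, Hist1h2ap, Hist1h2ae, Hist1h2bm and Hist1h3f. Lower was 1 (all genes 3.07%), Hist2h2be. Hist1h1d, Hist1h1a, Hist1h2bm and Hist1h3f had 42, 39, 32 and 19 albino UMIs and 13, 13, 14 and 6 pigmented ones. Each was under 20 UMIs in pigmented cells and reached the minimum of 20 only with its albino UMIs, so the count leans on that filter. Hist1h1b had 21.5 CPM in albino and 8.74 CPM in pigmented RGC-like cells (2.46, 1.87 to 3.26), and Hist1h2ap 26.0 and 8.24 CPM (3.15, 2.40 to 4.19). The rule called 15 of 708 albino RGC-like cells G2M, against 4 of 550 pigmented ones. The 10 cells with most histone UMIs other than Hist3h2ba held 15.8% of such UMIs in the albino and 8.09% in the pigmented class, and the highest cell had 182 and 78 UMIs against a median of 6 and 5. In RGC-like cells called G1 only, Hist1h1b was at 1.52 (1.07 to 2.17) and Hist1h2ap at 1.72 (1.24 to 2.41), and without those 10 cells at 1.497 and 1.80. Cluster 9 had ratios of 0.936 (0.540 to 1.66) and 0.997 for these genes, while cluster 7 had 3.07 and 4.76 and cluster 13 had 4.55 and 4.31. Doublets between RGC-like and cycling cells, little removed in the albino library, were not tested as a source.

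Per cell, histone mRNA was spread unevenly. Each cell was thinned to 5800 UMIs so that depth did not set the values. The median histone UMIs per thinned cell were 5 in G1, 9 in S and 34 in G2M in the albino cycling classes and 5, 7 and 27 in the pigmented ones. The 90th percentile in S was 63 albino and 69 pigmented, far above the median, and the 10% of S cells with most histone UMIs held 34.9% and 39.6% of them. Hist1h1b was found in 13.4% of thinned albino G1 cells, 58.1% of S cells and 65.4% of G2M cells, and in 10.2%, 51.0% and 63.4% of pigmented ones. Hist3h2ba was found in 87.7%, 67.9% and 71.7% of the albino and 81.9%, 65.0% and 68.1% of the pigmented cells, its highest share being in G1.

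Between classes at the same depth, Hist1h1b was found in 5.08% (34 of 669) of albino RGC-like cells against 58.6% of RPC-like cells, and in 3.74% (20 of 535) against 52.8% in the pigmented library. Hist3h2ba was found in 99.4% against 68.9% of albino and 99.3% against 65.7% of pigmented cells. Hist3h2a was found in 61.4% against 8.27% of albino and 57.2% against 9.27% of pigmented cells. Before thinning the median depth was 14561.5 UMIs in albino RGC-like and 10195 in albino RPC-like cells, and 14261.5 and 9625 in pigmented ones. Any member was found in 669 of 669 albino RGC-like cells and in 99.8% of pigmented ones, against 99.6% and 99.5% of RPC-like cells. Without Hist3h2ba the RGC-like shares were 88.9% and 88.4%. The proportions among members differed between classes. Hist1h1e had 344 UMIs per 100 of Hist1h1b in albino and 714 in pigmented RGC-like cells, against 58.0 and 54.6 in RPC-like cells. In cycling-class cells called G1, Hist1h1e was also above Hist1h1b, with 249 against 92 UMIs albino and 486 against 173 pigmented. The proportion is thus not particular to RGC-like cells.

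Across thinned RPC-like cells the S-phase members went together. Pearson's r between Hist1h1b and Hist1h2ap was 0.76 over 992 albino cells and 0.79 over 1888 pigmented cells. It was 0.83 in both libraries between Hist1h2ap and Hist1h2ae, and 0.72 and 0.75 between Hist1h1b and Hist1h1e. Hist3h2ba gave values between −0.06 and 0.05 with each of the other 6 members compared. These values describe cells of 1 library, which share its preparation, and near-identical sequence can add to them.

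Genes that handle histone mRNA and protein moved less than the histone genes themselves. Of the 13 histone mRNA factors 12 were tested for S over G1, and 9 albino and 10 pigmented ones were higher, with a summed ratio of 1.64 and 1.65. Slbp, which binds the stem-loop, had 225 CPM in S against 73.4 CPM in G1 in albino cells and 215.5 against 77.5 CPM in pigmented cells. Casp8ap2, a factor of the histone locus body, had 147 against 66.1 CPM and 148 against 58.9 CPM. The 13 histone chaperones had a summed ratio of 1.27 and 1.248, with 12 and 13 higher. Nasp, a carrier of H3 and H4, had 624 against 341 CPM and 657.5 against 319.8 CPM. Hat1, which acetylates new H4, had 299 against 99.9 CPM and 291.5 against 94.4 CPM. The 11 replication-independent variants were nearly flat between G1 and S, at 1.10 in both libraries, with 5 and 6 higher. In cells called G2M their sum was higher, at 17416 CPM against 10941 CPM in G1 in albino cells. In pigmented cells it was 16800 against 10743 CPM.

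In RGC-like over RPC-like cells the mRNA factors were at 0.565 albino and 0.558 pigmented, the chaperones at 0.413 and 0.409 and the S-phase list at 0.118 and 0.106. The variants were at 0.805 and 0.780, with 4 of 11 higher in both libraries. H3f3b and H3f3a, which encode the H3.3 protein deposited outside replication, were higher in RGC-like cells. H3f3b had 3900 CPM in RGC-like against 2402 CPM in RPC-like albino cells and 3691 against 2324 CPM in pigmented cells. H3f3a had 3552 against 2532 CPM in albino and 3543 against 2531 CPM in pigmented cells. H2afz, a variant of H2A, was lower, at 1450 against 4408 CPM and 1303 against 4337 CPM. Slbp had 43.3 against 173 CPM and 40.4 against 170 CPM.

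Several limits of annotation bear on single members. Of the 62 members, 59 share at least some 60-base windows with other genes and 29 share 50% or more, so levels of single members are less certain than their sums. Hist1h1b, Hist1h1a and Hist2h2be share none, and Hist3h2ba shares 18.9% overall and 0 in its last 200 bases. Hist1h1e (chr13:23620629-23622558, − strand) overlaps Gm11398 and Hist1h2be on the same strand, and all windows of its last 200 bases are shared. All windows of the last 200 bases of Hist1h3e and of Hist1h3f are shared too, and both models end in the same bases. The levels of these H3 genes may therefore not be separate measures. Hist3h2a overlaps exons of Trim17 on the same strand, and Trim17 itself had at most 1 UMI in the RPC-like, RGC-like, photoreceptor-like and amacrine-or-horizontal-like cells of either library.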

How the data were processed

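Raw UMI counts for each gene in each barcode were deposited by the authors, made from 10x single cell 3' v2 libraries, per the labels' protocols. Cell Ranger 2.1.1 and the build mm10 are named by the submitters' processing notes, but the matrices name 5.0.1, per the file headers, and which version made the counts is not known here. How introns and multi-mapped reads were counted is not stated there.

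Barcodes passed with 500 genes or more and a mitochondrial share of 10% or less, and doublets called per library with Scrublet were removed. The clustering used 2000 variable genes, 30 principal components, 15 neighbours and Leiden resolution 1, on the pooled libraries without a batch correction. A cluster was named when its best marker list led the next by at least 0.3 in mean log2 fold, among other conditions, and the rest stayed unnamed. Phase scores came from Scanpy. Levels are UMIs summed over cells per 1000000 UMIs of the same cells, ratios have conditional exact intervals, shares have Clopper-Pearson intervals, and log2 ratios add 1 UMI per side. Genes with at least 20 UMIs in a comparison were tested against a fold of 1.5 (libraries) or 2 (phases and classes). For shares and per-cell medians each cell was thinned to 5800 UMIs, leaving out shallower cells. Near-identical sequence was measured as 60-base windows shared between transcript models. The ratio and interval code was tested on simulated data. Clustering ran in Scanpy 1.11.5 with leidenalg 0.10.2 and scikit-learn 1.9.0, intervals were computed with SciPy 1.17.1 and NumPy 2.4.6, and plots were drawn with matplotlib 3.10.9, under Python 3.11.15.

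The members, lists and alternatives were chosen with earlier results of these data known. The members given in full were the 4 with most UMIs of each histone type and, among those with at least 100 UMIs, the 3 at each end of the S over G1, RGC-like over RPC-like and albino over pigmented ratios. Other members are named where they passed a fold or set a count, and were chosen after their values were seen. Alternatives covered the gene filter, doublets, phase rule, clustering genes, fold, depth, the cells with Xist UMIs and no Y-linked UMI, and the most abundant member.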

Additional observations from a re-analysis of the deposited data

Results flagged for a closer look

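In CMZ-like cells called G2M the summed histone level of albino over pigmented was 0.908 (0.889 to 0.927), below 1, while over the whole class it was 1.10 and in cells called S 1.15. The difference between these ratios was not tested. Leaving out the cell with most histone UMIs in each library gave 0.887 (0.868 to 0.906), and clusters 3 and 5 alone gave 0.923 and 0.863. The highest cell held 8.87% of the histone UMIs in the albino and 1.65% in the pigmented CMZ-like G2M cells.

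Barcodes left out of every comparison also carried histone UMIs. Called doublets held 2125 CPM in the albino library (4 barcodes) and 3172 CPM in the pigmented library (168 barcodes). Barcodes under the gene minimum or over the mitochondrial maximum held 1499.7 CPM in the albino library (164 barcodes) and 1879.7 CPM in the pigmented library (206 barcodes). Kept cells held 3371 CPM in the albino and 3583 CPM in the pigmented library.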

How the results depend on the processing

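No paired analysis was possible because there was 1 library per group, and for the same reason no replicate could be left out. Of the values recomputed under other settings, 82 moved by less than their counting interval (for counts of members, less than 1.5 times), 71 moved beyond it and 4 changed direction. The 4 were the ratio of albino over pigmented in all cells, 1.04 with the mean of per-cell levels in place of 0.941 with sums, the ratio in RPC-like cells, 0.983 over cells with Xist and no Y-linked UMIs in place of 1.02, and, in RGC-like cluster 9 alone, Hist1h1b at 0.936 and Hist1h2ap at 0.997. No other direction turned. The cause was not tested.

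In pairs the albino value comes first. With at least 1000 genes per cell, CMZ-like and neurogenic-like ratios of albino over pigmented were 1.07 and 1.16, RGC-like over RPC-like 0.382 and 0.364, albino CMZ-like over RPC-like 0.733 and S over G2M 0.642 and 0.629. With called doublets kept, the library ratios were 1.08 (CMZ-like) and 1.14 (neurogenic-like), CMZ-like over RPC-like 0.716 and 0.676 and pigmented RGC-like over RPC-like 0.368, and 0 members were 1.5-fold lower. Without the cell with most histone UMIs, the CMZ-like ratio was 1.08 and albino CMZ-like over RPC-like 0.725. A fold midway between 1 and 1.5 gave 5 members higher and 10 lower over all cells, and a fold of 2 gave 1 and 0. Means of per-cell levels gave library ratios of 1.06 (RPC-like), 1.14 (CMZ-like) and 1.18 (neurogenic-like), CMZ-like over RPC-like 0.714 and 0.668, S over G2M 0.574 and 0.561, pigmented RGC-like over RPC-like 0.372, pigmented S over G1 4.08 and 1 member lower. Without the member with most UMIs, Hist1h1b, the library ratios were 0.979 (all cells), 1.04 (RPC-like), 1.13 (CMZ-like) and 1.15 (neurogenic-like), and S over G1 was 3.43 and 3.49. Not thinned, 99.4% of albino RGC-like cells had a histone UMI. Counting a phase only where its score passed 0.1 gave S over G1 4.38 and 4.65 and S over G2M 0.669 and 0.651. Over cells with Xist and no Y-linked UMIs the library ratios were 0.922 (all cells) and 1.08 (neurogenic-like), and the pigmented RGC-like over RPC-like, CMZ-like over RPC-like, S over G1 and S over G2M ratios were 0.329, 0.659, 4.07 and 0.571. Phase from thinned cells gave S over G2M 0.657 and 0.630. Keeping phase genes in the clustering gave a neurogenic-like ratio of 1.10, albino RGC-like over RPC-like 0.382, pigmented CMZ-like over RPC-like 0.672 and S over G2M 0.648 and 0.640. Without Hist3h2ba, a setting chosen after seeing the data like those on RGC-like clusters and single cells, the all-cell ratio was 0.888, RGC-like over RPC-like 0.113 and 0.0928, CMZ-like over RPC-like 0.729 and 0.664, S over G1 6.15 and 6.499 and S over G2M 0.625 and 0.601.

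Depth limits the members with few UMIs: those with under 10 UMIs in a group have intervals that span several fold. Intervals cover counting error only, and PCR copies are removed by UMIs, while differences between embryos, litters and preparations are not covered. Class names were rebuilt from markers.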
